A study of Mus musculus with 6 samples.

Results

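Integrins are cell surface receptors made of an α and a β subunit, and they connect the extracellular matrix outside a cell to the actin cytoskeleton or to keratin filaments inside it. The pairing sets the ligand: β1 joins many α subunits into receptors for collagens, laminins and fibronectin, the αv subunit joins several β subunits into receptors that read the RGD motif of fibronectin and vitronectin, and α6β4 holds epithelial cells on laminin through hemidesmosomes. Subunits that find no partner are largely retained inside the cell, so the RNA of a subunit is not a measure of the receptor at the surface. The 10 subunits described here, Itga2, Itga3, Itga5, Itga6, Itgav, Itgb1, Itgb3, Itgb4, Itgb5 and Itgb7, were taken by gene name from a table of 22880 genes.

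The cells were mouse colon adenocarcinoma MC-38 cells that express GFP. Both groups carried the pLKO.1-puro vector and had not been passaged in vivo before, and they formed orthotopic tumors in the cecum wall of C57BL/6J mice, whose own cells kept their HIF-1α. One group had a knockdown of HIF-1α, the subunit of the hypoxia-inducible factor that is stabilized at low oxygen (HIF-1α-KD), and the other was its Mock control. Viable GFP+ cells negative for CD45 and CD31 were sorted, and polyadenylated RNA was sequenced in 3 libraries per group. Whether a knockdown line was 1 clone, and whether a library came from 1 animal, is not given in the sources used here, so p-values measure the spread between these libraries, which may be technical. The comparison asks which tumor cell transcripts differ when the hypoxia response is attenuated.

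The libraries held from 19845791 to 30809367 reads on genes. Levels are given as normalized counts, the deposited unit, which is the read count of a gene after division by a factor of its library. Hif1a, the targeted gene, had 6914, 5424 and 4945 normalized counts in the Mock group against 697.3, 3142 and 1928 in the knockdown group, so the groups did not overlap, and HIF-1α-KD replicate 1 had the lowest level. On the log2 scale Hif1a differed by -1.82 (standard error, SE, of 0.46, limma adjusted p = 0.219). Colon epithelial markers were scarce: 3 of the 8 on the list passed the filter on low counts, and Epcam had between 2.31 and 37.5 normalized counts. All 8 of them, Krt8, Krt18, Krt19, Krt20, Epcam, Cdh1, Vil1 and Cdx2, were highest in Mock replicate 3. Mesenchymal transcripts were abundant. Of 9 fibroblast and mural cell markers, all tested, 0 passed the adjusted threshold in limma, and 4 had an unadjusted p-value under 0.05 on the higher side (Col1a1, Cspg4, Rgs5 and Pdgfrb), where 7.04% of all genes tested did. Dcn and Lum had log2 fold changes of -0.38 and -0.16, and Pdgfra one of 0.03. The 9 markers summed to between 41547 and 98625 normalized counts in the Mock group against 115513 to 226165 in the knockdown group, but without Col1a1, a sum added after the data were seen, the groups overlapped, with 31699, 32847 and 51555 against 39965, 39412 and 24863. Dcn was the largest term of that remainder in every library. Cspg4 (300 to 1417 against 1489 to 2032 normalized counts) and Rgs5 (16.0 to 30.6 against 40.8 to 66.8), like Col1a1, did not overlap between the groups. Thus 3 of the 9 had no overlap, where 19.2% of all genes tested had none (10.4% on the higher side). The 13 leukocyte markers, 11 of them tested and 0 with an unadjusted p-value under 0.05, summed to between 5374 and 5914 in Mock and to 3149, 4127 and 14653 in HIF-1α-KD replicates 1, 2 and 3, with Lyz2 making up most of the last value and Cd3e near 0. Endothelial markers summed to 512 to 624 in the Mock group against 325 to 484 in the knockdown group, mostly from Cdh5 (log2 fold change -0.84), while Pecam1 and Tek, the other tested markers of that list, had log2 fold changes of 0.26 and 1.26. Platelet markers, mostly Pf4 and Itga2b, summed to 85.8 to 111 against 44.4 to 172. In such bulk libraries, fewer cells of a type and less RNA per cell cannot be told apart.

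Since the groups differ in HIF-1α, the stretches upstream of 3 subunits are shown with the core letters of the hypoxia response element in capitals: Itgb5 and Itgb7, which had the smallest p-values of the 8 tested members, and Itgb1, the most abundant. Each stretch of 200 bases runs from 230 to 31 bases before the start of the gene in RefSeq on GRCm38.p6, and the positions are chr16:33829435-33829634 (plus strand) for Itgb5, chr15:102231966-102232165 (minus strand) for Itgb7 and chr8:128685424-128685623 (plus strand) for Itgb1.
Itgb5: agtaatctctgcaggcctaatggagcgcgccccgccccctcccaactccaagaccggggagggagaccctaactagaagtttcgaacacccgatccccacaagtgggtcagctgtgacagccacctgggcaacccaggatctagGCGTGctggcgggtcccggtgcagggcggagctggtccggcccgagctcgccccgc
Itgb7: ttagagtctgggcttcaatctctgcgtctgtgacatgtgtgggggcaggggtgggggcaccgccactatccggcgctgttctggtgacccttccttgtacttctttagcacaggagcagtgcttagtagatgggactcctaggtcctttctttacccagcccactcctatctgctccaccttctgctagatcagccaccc
Itgb1: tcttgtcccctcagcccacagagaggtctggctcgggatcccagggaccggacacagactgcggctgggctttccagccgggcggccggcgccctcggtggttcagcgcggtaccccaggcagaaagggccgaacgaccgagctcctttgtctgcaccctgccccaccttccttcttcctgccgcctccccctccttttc

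The core was searched as ACGTG or GCGTG on both strands, in windows from 250 bases before to 50 bases after each start. The table held 8 such windows for 7 of the 10 subunits (Itga2, Itga3 with 2 starts, Itga5, Itgav, Itgb1, Itgb5 and Itgb7). It was found once in 2 of them, as GCGTG whose first base lies 86 bases before the start of Itgb5 and 46 bases before that of Itga2. Of all 32851 windows, 43.8% held the core, so its presence near a start is common. The Itgb5 and Itgb1 windows were rich in G and C (65.7% and 67.3%) and held 20 and 27 CG pairs, whereas the Itgb7 window had 56.3% and 5. A match of letters is a description of the sequence and was not tested as a binding site.

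No integrin member (0 of the 8 tested) differed between HIF-1α-KD and Mock cells at a limma adjusted p-value under 0.05, where 0.391% of all 12014 genes tested did (0.00832% higher and 0.383% lower in HIF-1α-KD). The quasi-likelihood test of edgeR and the Wald test of DESeq2 on the recovered reads also called 0 of 8, where they called 0.391% and 2.36% of all genes. At an unadjusted p-value under 0.05 there were 2, Itgb5 on the higher and Itgb7 on the lower side, where 12.7% of all genes had such a value (7.04% higher and 5.69% lower). The libraries of the groups overlapped for every one of the 8, while 19.2% of all genes tested had no overlap (10.4% higher and 8.75% lower), and 3 libraries against 3 allow no exact permutation p-value below 0.1. The estimates lay on both sides of 0, with 3 above and 5 below, and the median log2 fold change was -0.06 against 0.02 over all genes tested. Itga2 and Itgb3 did not pass the filter on low counts. Fold changes are on the scale of log2 of the normalized count plus 1, and a positive value means higher in HIF-1α-KD.

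**Figure D1:**
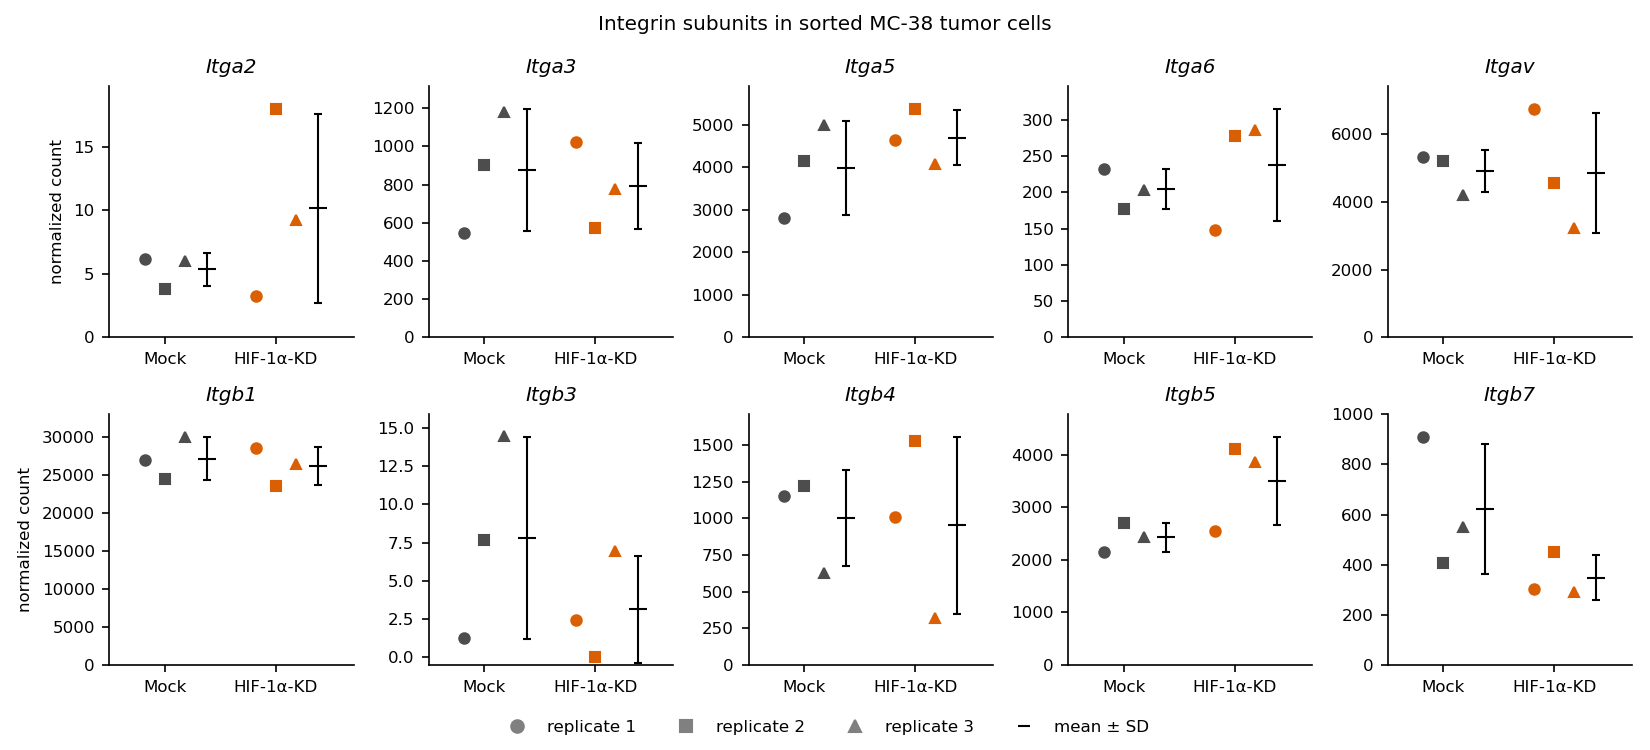
Normalized count (linear axis, own scale per panel) of each of the 10 integrin subunits in the 3 Mock and 3 HIF-1α-KD libraries, with the mean and SD of each group beside the points. The ranges of the groups overlap in every panel, as for Itgb5, where HIF-1α-KD replicate 1 (2538) lies among the Mock libraries.

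Among the α subunits, Itgav (ENSMUSG00000027087, chr2:83724397-83806916, plus strand) encodes αv, the shared chain of the vitronectin receptors. Positions of members are those of GENCODE M21 on GRCm38. Itgav had 5330, 5206 and 4206 normalized counts in the Mock group against 6753, 4562 and 3229 in the knockdown group. HIF-1α-KD cells thus held both the highest and the lowest library. The log2 fold change was -0.08 (SE 0.25, limma adjusted p = 0.924), and its 95% interval ran from 0.638-fold to 1.41-fold.

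Itga5 (ENSMUSG00000000555, chr15:103344286-103366763, minus strand) encodes α5, which pairs with β1 in the classical fibronectin receptor. It had 2808, 4156 and 4989 normalized counts in the Mock group against 4635, 5372 and 4081 in the knockdown group. Mock replicate 1 was the lowest of the 6, and the other Mock libraries lay among the HIF-1α-KD ones. The log2 fold change was 0.27 (SE 0.22, limma adjusted p = 0.646), with a 95% interval on the log2 scale from -0.23 to 0.76. Without Mock replicate 1 the log2 fold change was 0.035, and without Mock replicate 3 it was 0.45.

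The laminin-binding chains followed. Itga3 (ENSMUSG00000001507, chr11:95044474-95076801, minus strand), which forms α3β1, had 546.6, 905.3 and 1183 normalized counts in the Mock group against 1025, 572 and 778.5 in the knockdown group, with all HIF-1α-KD values inside the Mock range. Its log2 fold change was -0.12 (SE 0.31, limma adjusted p = 0.902). Itga6 (ENSMUSG00000027111, chr2:71745616-71858416, plus strand), which pairs with β1 or β4, had 232.7, 177 and 202.9 in the Mock group against 148, 278.2 and 286.5 in the knockdown group. HIF-1α-KD replicate 1 was the lowest library and the other HIF-1α-KD libraries were the highest. Its log2 fold change was 0.17 (SE 0.29, limma adjusted p = 0.842), and with 1 library left out it lay between 0.00017 (without HIF-1α-KD replicate 3) and 0.47 (without HIF-1α-KD replicate 1).

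Itga2 (ENSMUSG00000015533, chr13:114833081-114932100, minus strand) encodes α2, the chain of the collagen receptor α2β1, and was nearly absent. It had between 4 and 15 reads per library and 41 in all, against a Mock mean of 5.34 ± 1.31 (SD, n = 3) and an HIF-1α-KD mean of 10.1 ± 7.43 (SD, n = 3) normalized counts. A difference was not detectable at this depth.

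Of the β subunits, Itgb1 (ENSMUSG00000025809, chr8:128685654-128733200, plus strand) encodes β1, the common partner of the collagen, laminin and fibronectin receptors, and was the steadiest member. Itgb1 had 26960, 24390 and 30010 normalized counts in the Mock group against 28550, 23540 and 26370 in the knockdown group. The ranges nearly coincided. The log2 fold change was -0.05 (SE 0.15, limma adjusted p = 0.914), and the 95% interval ran from 0.761-fold to 1.22-fold, the narrowest of the 8. Scaling by library size and FPKM values moved the median of all genes by 0.056 and 0.047 on the log2 scale, and Itgb1, moving with it, came to 0.0047 and 0.0050. The SD within groups was 0.14 on the log2 scale for Itgb1 and up to 0.90 for Itgb4.

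Itgb5 (ENSMUSG00000022817, chr16:33829665-33949338, plus strand) encodes β5, which pairs with αv in a vitronectin receptor. It had 2146, 2706 and 2423 normalized counts in Mock (mean 2425 ± 280, SD, n = 3) and 2538, 4109 and 3849 in HIF-1α-KD libraries (mean 3499 ± 842, SD, n = 3). HIF-1α-KD replicates 2 and 3 lay above every Mock library, whereas replicate 1, the library with the least Hif1a, lay among them. The log2 fold change was 0.50 (SE 0.20, limma unadjusted p = 0.0348, adjusted p = 0.372), with a 95% interval from 1.03-fold to 1.95-fold. Without HIF-1α-KD replicate 1 it was 0.72 (limma adjusted p = 0.16), and the unadjusted p-value was 0.099, 0.0709, 0.137 and 0.107 without Mock replicate 1, Mock replicate 3, HIF-1α-KD replicate 2 and HIF-1α-KD replicate 3. Of the fibroblast and mural markers, Col1a1, Cspg4 and Rgs5 were each higher in every HIF-1α-KD than in every Mock library. Within the HIF-1α-KD group they were highest in replicate 1, in which Itgb5 was within the Mock range. Pdgfra, Pdgfrb, Lum and Des also peaked there within that group. Dcn (22360, 27140 and 15050 normalized counts in HIF-1α-KD replicates 1, 2 and 3) and Acta2 (86.9, 173.9 and 329.2) did not, and Acta2 was lowest there. These other markers overlapped between the groups. The sum of the 8 markers other than Col1a1, mostly Dcn, overlapped between the groups. The part of such cells in the Itgb5 values was not tested.

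Itgb7 (ENSMUSG00000001281, chr15:102215995-102231944, minus strand) encodes β7, which pairs with α4 or αE mainly on lymphocytes and binds MAdCAM-1, fibronectin or E-cadherin. It had 911, 404.8 and 550.8 normalized counts in Mock (mean 622 ± 261, SD, n = 3) and 302.4, 450.8 and 289.9 in HIF-1α-KD libraries (mean 348 ± 89.5, SD, n = 3). Mock replicate 1 stood highest, and HIF-1α-KD replicate 2 lay above Mock replicate 2, so the groups overlapped. The log2 fold change was -0.79 (SE 0.31, limma unadjusted p = 0.0332, adjusted p = 0.366), with a 95% interval from 0.355-fold to 0.947-fold. Without Mock replicate 1 it was -0.47 (limma unadjusted p = 0.115), and the unadjusted p-value was 0.0592, 0.0714 and 0.0913 without Mock replicate 3, HIF-1α-KD replicate 1 and HIF-1α-KD replicate 3.

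Since Itgb7 is known from leukocytes, its values were set beside their transcripts. HIF-1α-KD replicate 3 held the most leukocyte marker RNA (14653 summed normalized counts, largely of the myeloid genes Lyz2, Itgam, Csf1r and Adgre1) and replicate 1 the least (3149), while Itgb7 was 289.9 and 302.4 in them. The part of leukocytes in the Itgb7 values was not tested. Ptprc, which encodes the CD45 used to exclude leukocytes in the sort, had 112, 89 and 118.4 normalized counts in the Mock group against 40.2, 58.8 and 222.9 in the knockdown group. Cd3e, a defining T cell gene, had at most 2.46. The α partners were scarce: per kilobase, Itga4 and Itgae together had between 0.276 and 0.883 FPKM, and Itgb7 alone had between 7.93 and 23.1 FPKM.

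**Figure D2:**
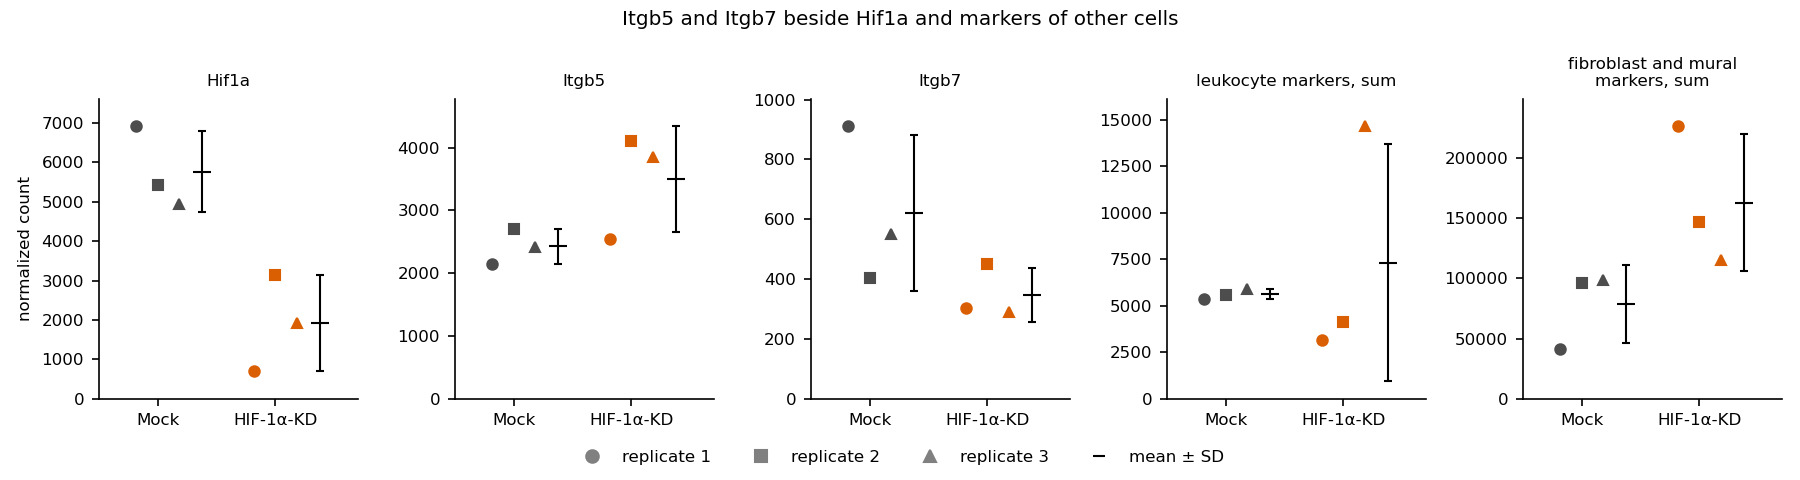
Normalized count (linear axis, own scale per panel) by library of Hif1a, Itgb5, Itgb7 and the sums of 13 leukocyte and 9 fibroblast and mural markers, with mean and SD of each group. HIF-1α-KD replicate 1 has the least Hif1a (697.3) and an Itgb5 level inside the Mock range. HIF-1α-KD replicate 3 has the most leukocyte marker RNA, mostly of Lyz2, and replicate 1 the least, with Itgb7 at 289.9 and 302.4 in them. The part of leukocytes in the Itgb7 values was not tested. The fibroblast and mural sums do not overlap, whereas without Col1a1 the remainder, mostly Dcn, does.

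Itgb4 (ENSMUSG00000020758, chr11:115974709-116008412, plus strand) encodes β4, the partner of α6 in hemidesmosomes, with a long cytoplasmic tail that binds plectin. Its SD within groups was the largest of the 8 tested members, with 1152, 1222 and 623.3 normalized counts in the Mock group against 1009, 1526 and 322.3 in the knockdown group. HIF-1α-KD cells held the highest and the lowest library, and replicate 3 was the lowest in both groups. Mock replicate 3, with the most keratin and Epcam RNA, was the second lowest. The log2 fold change was -0.27 (SE 0.52, limma adjusted p = 0.853), and it changed sign to 0.37 without HIF-1α-KD replicate 3. The 95% intervals on the log2 scale were wide for the laminin receptor chains, from -1.45 to 0.91 for Itgb4, from -0.82 to 0.58 for Itga3 and from -0.50 to 0.83 for Itga6.

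Itgb3 (ENSMUSG00000020689, chr11:104608000-104670476, plus strand) encodes β3, a partner of αv and, on platelets, of αIIb. It was at the edge of detection, with between 0 and 12 reads per library, 30 reads in all, and none in HIF-1α-KD replicate 2. A difference was not detectable at this depth. Of the platelet markers, Pf4 (from 24.0 to 140 normalized counts) and Itga2b (from 19.2 to 45.9), which encodes αIIb, passed the filter, whereas Gp1ba was at 0 in all libraries and Gp9 in all but Mock replicate 2. Itgb6 had no read, so the β partners of αv with the most RNA were β1, β5 and β8.

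**Figure D3:**
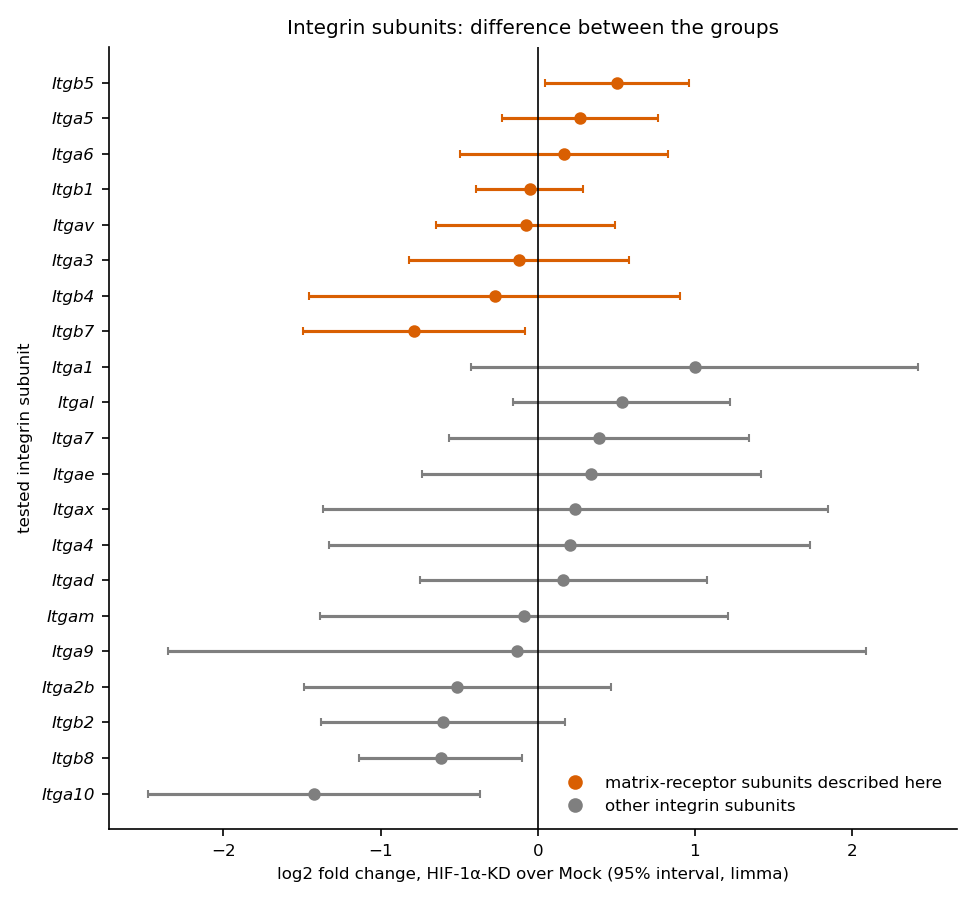
Log2 fold change of HIF-1α-KD over Mock with the 95% interval of limma for the 8 tested members and the 13 other tested integrin subunits. Of the members, the intervals of Itgb5 (0.05 to 0.96) and Itgb7 (-1.49 to -0.08) leave out 0, as do those of Itgb8 and Itga10 among the others, all before adjustment for the number of genes.

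The levels of the subunits were ordered per kilobase, as deposited FPKM. Itgb1 led in each library with between 490 and 582 FPKM, above every other member. Itgav (mean 82.3 FPKM) and Itgb5 (mean 82.0 FPKM) followed and did not differ beyond their spread, with Itgav higher in 4 of 6 libraries. Itga5 came next (mean 40.4 FPKM), below Itgb5 in all 6 libraries. Itgb7 (12.7 FPKM), Itga3 (12.5 FPKM), Itgb4 (9.78 FPKM) and Itga6 (4.05 FPKM) formed a lower tier in which the ranges of neighbours overlapped. Itga2 (0.0757 FPKM) and Itgb3 (0.0434 FPKM) were lowest, and they overlapped too.

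This order depends in part on the gene length used. The deposited width of Itgav is 2410 bases, while its exons in GENCODE M21 cover 10744 bases, and for Itga5 the lengths are 4380 and 4933. Per kilobase of all annotated exons, Itga5 and Itgav changed places by their means, with Itga5 at rank 2 and Itgav at rank 4. Itgb5, at rank 3, was above Itgav in all 6 libraries but above Itga5 in only 3 of 6, so ranks 2 and 3 were not told apart. The places of Itgb1 and of the lower 6 members stayed the same.

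Within a library, αv made up between 49.8% and 70.0% of the summed α FPKM of the members and α5 between 20.3% and 35.5%. Per kilobase of all annotated exons this turned, with αv between 23.2% and 41.8% and α5 between 47.9% and 66.1%, α5 being the larger in all 6 libraries. The α3 share was between 6.08% and 12.7%, and the α6 share at most 4.78%. Among the β members, β1 made up between 77.2% and 87.4%, and between 79.0% and 88.3% per kilobase of all exons. The share of β5 was 9.25%, 12.6% and 9.63% in the Mock group against 10.5%, 18.4% and 16.3% in the knockdown group, so that replicates 2 and 3 of HIF-1α-KD again lay above all Mock libraries and replicate 1 among them. The ratio of Itgb5 to its partner Itgav was 0.655, 0.847 and 0.938 in the Mock group against 0.612, 1.47 and 1.94 in the knockdown group, which gave the lowest and the 2 highest values to HIF-1α-KD cells. Per kilobase of all annotated exons it was above 1 in every library, at 1.22, 1.57 and 1.74 against 1.14, 2.72 and 3.60, in the same order of libraries. The ratio of Itgb4 to its partner Itga6 was between 1.68 and 3.78 in the Mock group against 3.74, 3.01 and 0.616 in the knockdown group, and HIF-1α-KD replicate 3 was the only library in which it was under 1. Per kilobase of all annotated exons the ratio in that library was 1.45, the lowest of 6, against 3.95 to 8.88 in the others.

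**Figure D4:**
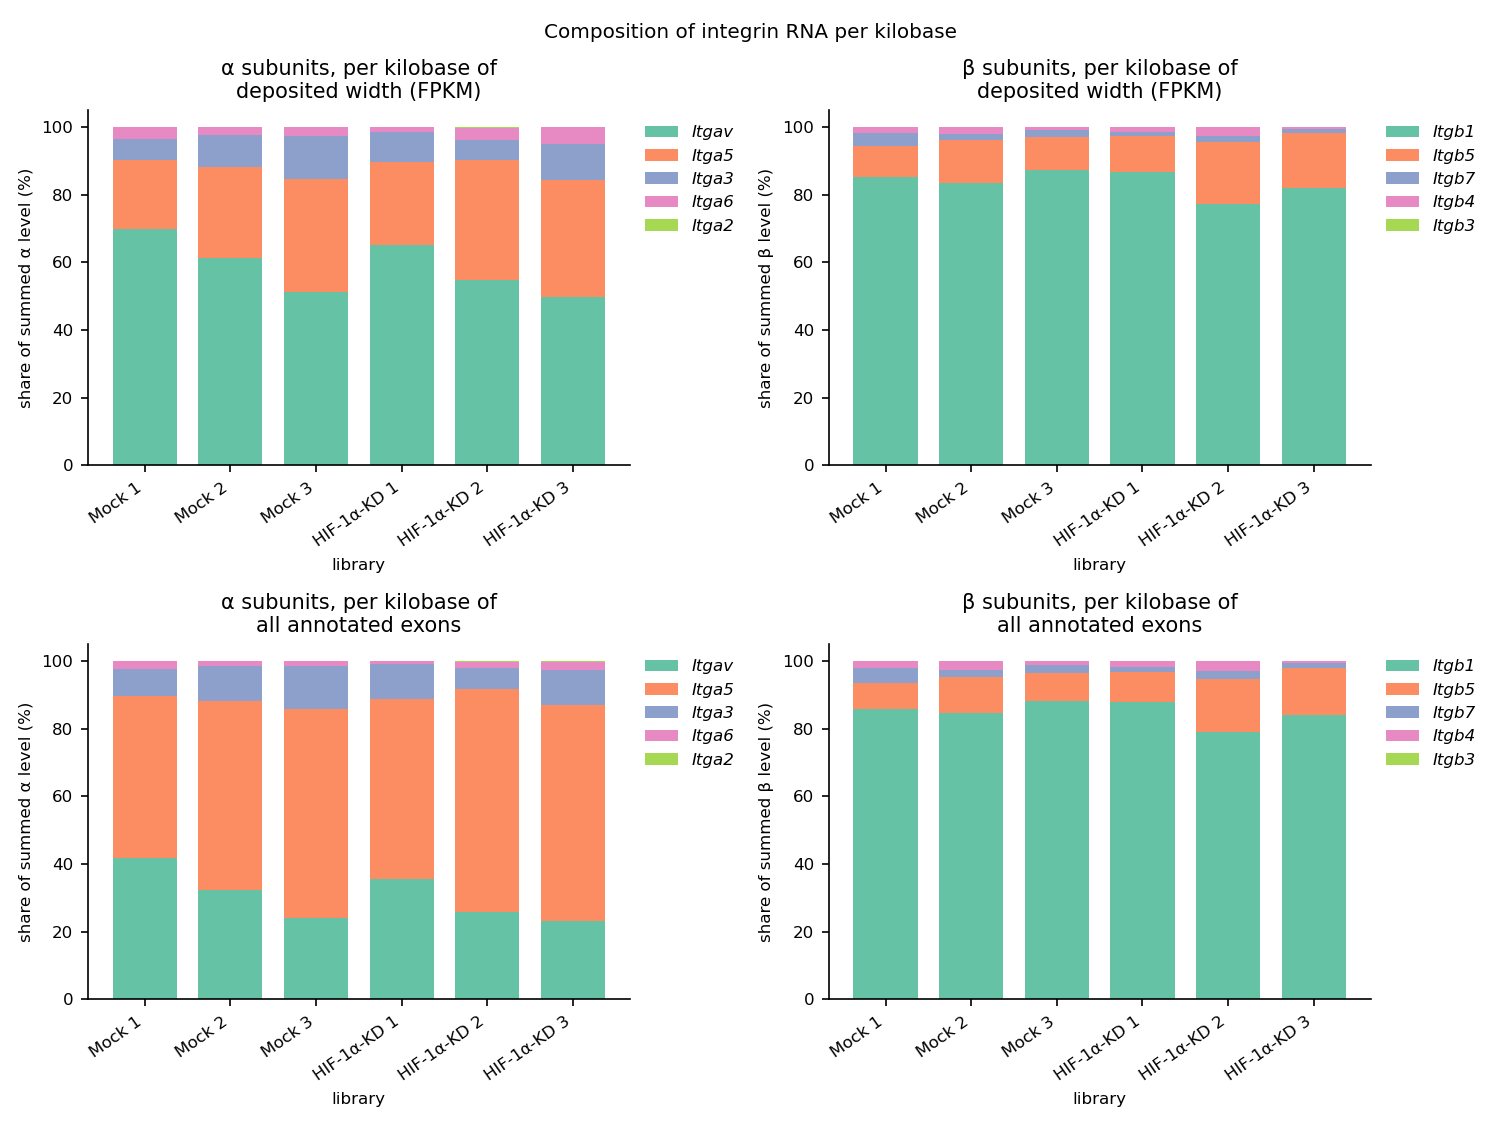
Share of each subunit in the summed level of the 5 α members (left) and the 5 β members (right), in percent by library, per kilobase of the deposited width (FPKM, top) and of all annotated exons (bottom). The largest α share is that of αv by deposited width (49.8% to 70.0%) and that of α5 by exon length (47.9% to 66.1%), while β1 leads the β members by both.

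The summed FPKM of the β members was between 3.79 and 5.92 times that of the α members, and between 4.44 and 6.49 times per kilobase of all exons. Together the 10 members took between 0.156% and 0.181% of the reads on genes. Across the 6 libraries, members did not move as one. Over log2 normalized counts, Pearson's r between pairs of tested members ran from -0.79 for Itga6 and Itgav to 0.73 for Itgav and Itgb4, and it was -0.30 for the partners Itga6 and Itgb4 and -0.58 for the partners Itgav and Itgb5. These values are a description over 6 libraries that share their scaling.

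The genes whose pattern over the 6 libraries was most like that of Itgb5 were Stat3 (Pearson's r = 0.995), Trpa1 (0.995) and Tek (0.985). Those most like Itgb7 were Rabgap1l (0.997), Sdhd (0.994) and Slc25a17 (0.989). These are the highest of 12014 values, each over 6 libraries, and serve as a description. Tek is also on the list of endothelial markers, and it had between 4 and 35 reads per library.

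The other 17 integrin subunits of the mouse were examined as a list. Of these, 13 were tested, none (0) passed the adjusted threshold in limma, edgeR or DESeq2, 2 had an unadjusted p-value under 0.05, both on the lower side (5.69% of all genes tested had one there), and Itgb2l and Itgb6 had no read. Itgb8, which encodes β8, the αv partner that activates latent TGF-β, had 694.3, 604.8 and 757.4 normalized counts in the Mock group against 603.2, 423.3 and 344.2 in the knockdown group. It was the only one of the 13 without overlap (8.75% of all genes tested had none on the lower side), by a small margin between Mock replicate 2 and HIF-1α-KD replicate 1, with a log2 fold change of -0.62 (SE 0.23, limma adjusted p = 0.339). Itga10, a collagen-binding α chain, had 115.7, 211.5 and 70.1 in the Mock group against 31.4, 38.4 and 70.5 in the knockdown group (log2 fold change -1.42, standard error 0.46, limma adjusted p = 0.296). It shares 1739 exon bases on the same strand with the gene Gm42957, so its count is uncertain.

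The most abundant of these others per kilobase were Itgb2, Itga7 and Itgam. Itgb2, the β2 chain of leukocytes, had a log2 fold change of -0.60 (SE 0.34, limma adjusted p = 0.505), and Itga7, a laminin-binding α chain, one of 0.39 (SE 0.42, limma adjusted p = 0.739). Itgam, the αM chain of myeloid cells, had between 363 and 423 normalized counts in the Mock group against 217, 198 and 1105 in the knockdown group. The high value was that of replicate 3, which also held the most Lyz2. Itgam shares 3450 exon bases on the same strand with the gene Gm49368, so its count is uncertain too.

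The matrix proteins that integrins bind were examined next. Of 37 tested ligand genes, 10 had an unadjusted p-value under 0.05 on the higher and 1 on the lower side, against 7.04% and 5.69% of all genes tested, and none (0) passed the adjusted threshold in limma. The median log2 fold change was 0.24, against 0.02 over all genes. Lama5, the α5 chain of laminins read by α3β1 and α6β4, had 231.4, 373.2 and 386.5 normalized counts in the Mock group against 855, 525.2 and 753.1 in the knockdown group (log2 fold change 1.11, standard error 0.26, limma adjusted p = 0.203). Col3a1, a fibrillar collagen chain, had a log2 fold change of 1.09 (SE 0.26, limma adjusted p = 0.206), and Col1a1 one of 1.99 (SE 0.62, limma adjusted p = 0.287). Tgfb3, whose latent form binds αv integrins, had one of 0.58 (SE 0.14, limma adjusted p = 0.219). The groups did not overlap for these 4 genes, which are among 9 of the 37 without overlap, where 19.2% of all genes tested had no overlap. Named after their values were seen, the laminin chains Lamc1, Lamb1 and Lama4 had log2 fold changes of 0.76, 0.74 and 1.29, and Cyr61, which encodes the matricellular protein CCN1, was the 1 ligand on the lower side (-1.24). DESeq2 called Lama5, Col3a1, Tgfb3 and Cyr61 at an adjusted p-value under 0.05, where it called 2.36% of all genes. The edgeR test called 0 of the 37, where it called 0.391% of all genes. Col1a1 is also on the list of fibroblast and mural markers given above, and the part of such cells in these values was not tested.

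Among the proteins that share the membrane with integrins, 1 of 14 tested genes passed the adjusted threshold, which 0.383% of all genes did on the lower side. At an unadjusted p-value under 0.05 there were 1 on the higher and 4 on the lower side, against 7.04% and 5.69% of all genes. Sdc4 encodes syndecan-4, a heparan sulfate proteoglycan that acts with α5β1 in focal adhesions on fibronectin. It had 6778, 5891 and 7705 normalized counts in the Mock group and fell to 3662, 3336 and 3796 in the knockdown group, without overlap (log2 fold change -0.91, standard error 0.15, limma adjusted p = 0.0447). When any 1 library was left out the adjusted p-value was between 0.0826 and 0.196, and with edgeR it was 0.0501. Bsg (basigin) had a log2 fold change of -0.74 (SE 0.16, limma adjusted p = 0.155), Cav1 (caveolin-1) one of -0.53 (limma adjusted p = 0.339), and Cd9, a tetraspanin, one of 0.87 (limma adjusted p = 0.294). Cd47, which binds αv integrins laterally and is named after its values were seen, was the remaining gene of the list with an unadjusted p-value under 0.05 (log2 fold change -0.34). DESeq2 called Sdc4 and Bsg, where it called 2.36% of all genes, and edgeR called 0 of the 14, where it called 0.391%. Cd63, the most abundant of this list, differed by less than the spread between libraries, with a log2 fold change of -0.06 (SE 0.17, limma adjusted p = 0.913).

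The cytoplasmic partners that switch integrins on or carry their signal followed. Of 37 tested activators, adaptors and kinases, 1 had an unadjusted p-value under 0.05 on each side, where 7.04% and 5.69% of all genes had one, and none (0) passed the adjusted threshold in limma, edgeR or DESeq2. These were Arhgef7, which encodes the exchange factor β-PIX (log2 fold change 0.56, standard error 0.16, limma adjusted p = 0.254), and Rsu1, a partner of the kinase complex of ILK and PINCH (log2 fold change -0.45, standard error 0.17, limma adjusted p = 0.345). Ilk itself had a log2 fold change of 0.08 (SE 0.17, limma adjusted p = 0.867), and Actn4, α-actinin-4, one of 0.31 (SE 0.23, limma adjusted p = 0.621).

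Of the 8 tested inactivators and adaptors that remove integrins from the active state, Dab2, which serves their endocytosis and also stands in the trafficking list, was the only one with an unadjusted p-value under 0.05, which 12.7% of all genes had (log2 fold change 0.75, standard error 0.30, limma adjusted p = 0.375). Flna, filamin A, which competes with talin for β tails, had one of 0.29 (SE 0.20, limma adjusted p = 0.584), and Nisch (nischarin) one of 0.18 (SE 0.20, limma adjusted p = 0.745). Among 12 tested trafficking genes, Acap1 was the other with an unadjusted p-value under 0.05, at between 10.4 and 85.8 normalized counts (log2 fold change -1.42, standard error 0.51, limma adjusted p = 0.333). Rab11a and Ehd1, which serve integrin recycling and had the most RNA per kilobase of that list, had log2 fold changes of -0.35 (limma adjusted p = 0.541) and -0.10 (limma adjusted p = 0.816).

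**Figure D5:**
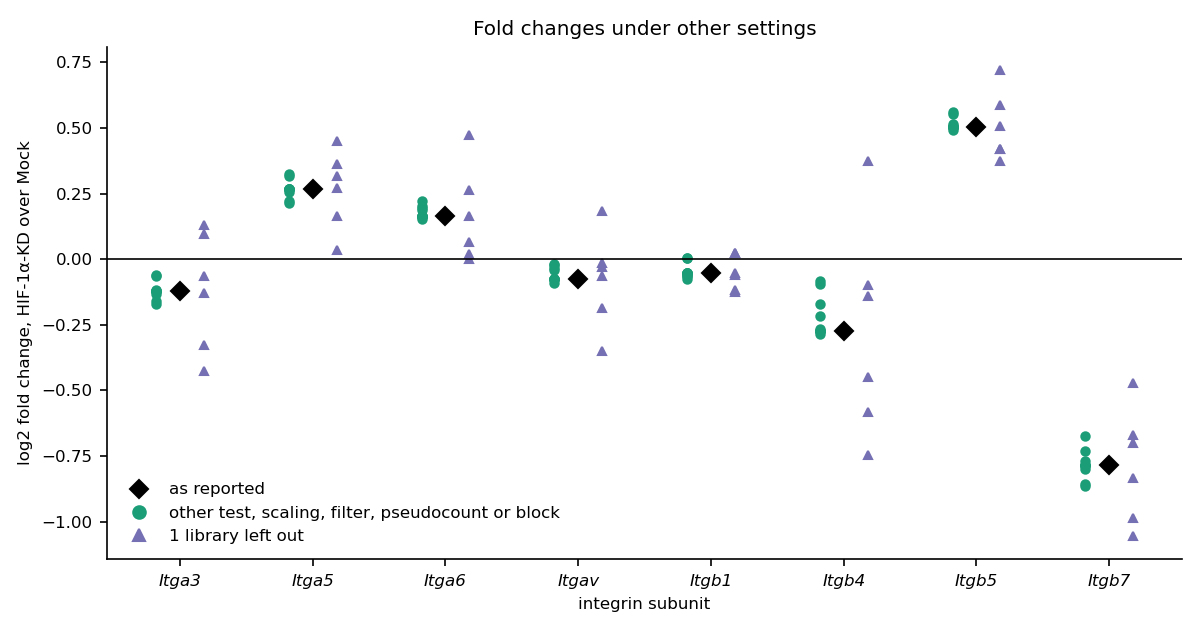
Log2 fold change of the 8 tested members as reported (diamonds), under the other tests, scalings, filters, pseudocounts and the replicate block (circles) and with 1 library left out (triangles). Itgb5 stays between 0.37 and 0.72 and Itgb7 between -1.05 and -0.47, while Itga3, Itgav, Itgb1 and Itgb4 cross 0.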

How the data were processed

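Polyadenylated RNA of sorted MC-38 cells was measured in 3 Mock and 3 HIF-1α-KD libraries, grouped by their labels. Per the paper's methods, trimmed reads were aligned with STAR, featureCounts gave the counts per gene, and DESeq2 served for the authors' own comparison. The methods name a human assembly, but the labels name GRCm38 (and edgeR), and the gene identifiers are those of mouse. The kit was stranded, and the strand setting of the counting is not given in the sources used here. Itgav and Itgb4 share 634 and 537 exon bases with genes on the opposite strand.

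The authors deposited 1 table. Its normalized counts are a signal that the authors made by dividing each count by a factor per library and rounding to 4 significant digits. Its FPKM values were computed by the authors from a deposited gene width and the reads of each library. The deposited GC fraction, the log2 ratio, the p-value and the false discovery rate were not used, the last 3 because they are the authors' own comparison of HIF-1α-KD with Mock.

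Reads were recovered from the step between low values. Up to 100 reads, 100% of values were whole within 0.05 reads. filterByExpr of edgeR 4.0.16 (minimum count of 10) kept 12014 genes. The groups were compared on log2 of normalized count + 1 by limma 3.58.1 with a mean-variance trend, two-sided, with Benjamini-Hochberg adjustment over all genes tested. DESeq2 1.42.0 and edgeR on recovered reads, 2 other scalings, FPKM, no filter, pseudocounts of 0.1 and 10, a replicate block and leaving out each library were alternatives. The tests were tested on simulated data. Members and gene lists were chosen with earlier results of these data known. All members were named, and of each context list up to 3 tested genes with the smallest unadjusted p-values (under 0.05) and the 2 with the highest mean FPKM (for other integrin subunits, all under 0.05 and the top 3), and defining cell type markers. Other genes, among them Lum, Pdgfra and Tek, were named after their values were seen. R 4.3.3 and Python 3.11.15 were used. The value of 1 leukocyte marker is not reported here.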

Additional observations from a re-analysis of the deposited data

How the results depend on the processing

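The count of integrin members at an adjusted p-value under 0.05 was 0 under all 16 alternatives. At an unadjusted p-value it was 0 of 8 for limma without trend (11.6% of all genes) and between 0 and 2 with each library left out (8.42% to 12.8% of all genes; 0 without Mock replicate 1, Mock replicate 3 or HIF-1α-KD replicate 3). Members without overlap numbered between 0 and 2 with each library left out: Itgb5 and Itgb7 without Mock replicate 2, Itga6 and Itgb5 without HIF-1α-KD replicate 1, and Itgb7 without HIF-1α-KD replicate 2, where between 26.6% and 31.2% of all genes did not overlap. Genes called over the whole table (47) were 283 with DESeq2, 1 with limma without trend, and between 0 and 38 with a library left out: 2, 11 and 0 without Mock replicates 1, 2 and 3, and 38, 0 and 8 without HIF-1α-KD replicates 1, 2 and 3. Genes called in the context lists (1, Sdc4) were 6 with DESeq2 (Sdc4, Bsg, Col3a1, Lama5, Tgfb3 and Cyr61) and 0 with edgeR, scaling by library size, limma without trend and any library left out. Scaling by library size moved the higher side of genes at an unadjusted p-value under 0.05 from 55.3% to 67.4%, and FPKM moved it to 65.3%. The cause was not tested.

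Itgb1 came to 0.0050 with FPKM and to 0.0047 with library size scaling, which moved the median of all genes by 0.047 and 0.056. With a library left out, log2 fold changes ran from -0.43 to 0.13 for Itga3, from -0.35 to 0.18 for Itgav, from -0.13 to 0.024 for Itgb1 and from -0.75 to 0.37 for Itgb4. They ran from 0.035 to 0.45 for Itga5 and from 0.00017 to 0.47 for Itga6, the lowest value being no difference. Itgb5 and Itgb7 kept their sign in all 16, between 0.37 and 0.72 and between -1.05 and -0.47.

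Same-numbered libraries did not deviate together (correlations of deviations from the group means of -0.14, -0.12 and 0.02), so the numbers were not taken as pairs. The replicate block called 0 genes over the table, 0 context genes and 0 members, with 1324 genes and 2 members at an unadjusted p-value under 0.05.

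Depth limits Itga2 and Itgb3, with 41 and 30 reads in all libraries. With 3 libraries per group, the 95% intervals of 6 of the 8 tested members include 0.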
